A study of Mus musculus with 24 samples.

Results

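The comparison described here is the cell type by genotype interaction between hematopoietic stem cells (HSCs) and multipotent progenitor 3 (MPP3) cells of young mice. For each gene the difference between TTPΔARE and wild type (WT) in HSCs was subtracted from the same difference in MPP3 cells, on the log2 scale, and the result is called the interaction value. A positive interaction value means that the MPP3 difference was the more positive of the pair. It used 16 of the 24 libraries of the series, chosen by their titles, with 4 libraries in each of 4 groups: Y-WT HSC, Y-TTPΔARE HSC, Y-WT MPP3 and Y-TTPΔARE MPP3. Measured values played no part in that choice. The MPP3 comparison of the study itself used 3 Y-TTPΔARE libraries, and its text does not name the library that was not used.

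All 16 libraries were bulk RNA-seq of cells sorted from bone marrow of untreated mice of the young age class, and the study used males alone. The TTPΔARE mice were homozygous for a germline allele that lacks an AU-rich motif (AU-rich element, ARE) in the 3′ untranslated region (UTR) of Zfp36, and the WT mice were littermates. The allele is present in every cell of the animal, so HSCs, their progeny and the marrow around them all carried it. The question asked of the contrast is whether the stem cell and the myeloid-biased progenitor respond alike to the allele. HSCs were sorted as Lin-, Sca1+, Kit+ cells without Flk2 and CD34 and with CD150. The sort gate of the MPP3 cells was not given in the sources used here, and the source name of the MPP3 samples calls them stem cells while their cell type tag calls them progenitors.

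Zfp36 encodes tristetraprolin (TTP), a zinc-finger protein that binds AU-rich elements in the 3′ UTR of short-lived mRNAs and recruits the CCR4-NOT deadenylase, which leads to their decay. TTP mRNA carries such elements itself, so that TTP lowers its own level, and removal of the element raises it. HSCs sit at the top of blood formation and are mostly quiescent, whereas MPP3 cells are a downstream, myeloid-biased multipotent progenitor that gives rise to granulocytes, monocytes and dendritic cells. MHC class II proteins, which present peptides to CD4 T cells, and their transactivator Ciita are expressed most by dendritic cells, B cells and macrophages. Type 1 conventional dendritic cells specialise in the cross-presentation of antigen from dead cells, depend on Irf8, Batf3 and Id2, and carry Clec9a and Xcr1 on their surface.

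The annotated Zfp36 3′ UTR was 774 bases long and held the pentamer ATTTA at 3 positions. They are shown because the element deleted in the mice is of this kind, although the deleted stretch was not mapped here. Each window below is 30 bases, read 5′ to 3′ on the strand of Zfp36 (chromosome 7, minus strand, GRCm38), with the pentamer in capitals. Neighbouring windows overlap.
Zfp36 site 1, chr7:28376965-28376994: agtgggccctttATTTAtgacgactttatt
Zfp36 site 2, chr7:28376950-28376979: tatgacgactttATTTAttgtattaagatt
Zfp36 site 3, chr7:28376925-28376954: agattttatagtATTTAtatatattgggtc

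Total gene counts ranged from 24261371 to 38620397 per library, with a median of 32768723.5. Levels are given as CPM, gene counts brought to a common library size, scaled by TMM factors that ranged from 0.791 to 1.203. HSC and MPP3 libraries carry separate runs of library numbers in their titles, so cell type and library set cannot be told apart, although a set effect shared by both genotypes cancels in the interaction value. Summed olfactory and vomeronasal receptor reads, a sign of stray reads, were 59.9, 870, 1048 and 643 CPM in Y-WT HSC libraries 1 to 4. They were 75.0, 336, 344 and 408 CPM in Y-TTPΔARE HSC libraries, so Y-WT HSC libraries 2 to 4 lay above all of these. Y-WT HSC libraries 2 to 4 also had 40051 to 41676 genes with a count, against 28398 to 38085 in Y-TTPΔARE HSC libraries. Receptor reads ranged from 17.8 to 299.95 CPM in Y-WT MPP3 and from 44.7 to 507 CPM in Y-TTPΔARE MPP3 libraries. No label says that the replicates came from separate animals, so p-values measure only the spread between these libraries. In bulk RNA a change in the share of cells of a type and a change of RNA per cell cannot be told apart.

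Y-WT HSC libraries 1 and 4 stood apart from the other HSC libraries mainly by markers of blood vessel cells. The summed level of the 15 endothelial and stromal markers was 930, 486, 467 and 915 CPM in Y-WT HSC libraries 1 to 4 and between 493 and 584 CPM in Y-TTPΔARE HSC libraries. It was between 416 and 478 CPM in Y-WT MPP3 and between 344 and 415 CPM in Y-TTPΔARE MPP3 libraries. Of the 15 markers, 9 were higher in both Y-WT HSC libraries 1 and 4 than in the other 6 HSC libraries, and no marker was at 0 throughout a group. The 9 were Cdh5, Pecam1, Kdr, Flt1, Tie1, Emcn, Plvap, Ramp2 and Cxcl12. Egfl7 and the stromal markers Col1a1, Col1a2, Lepr, Kitl and Pdgfrb were not among them. Plvap, of fenestrated endothelium, measured 219, 47.1, 39.4 and 207 CPM in Y-WT HSC and between 33.3 and 41.5 CPM in Y-TTPΔARE HSC libraries. The counts of interaction and HSC calls below are also given without them.

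The genes of the sort gates followed the labels. Flt3, the receptor also called Flk2, was between 41.4 and 68.7 CPM in HSC and between 423 and 752 CPM in MPP3 libraries, and Cd34 between 249.6 and 367 CPM in HSC and between 1208 and 1602 CPM in MPP3 libraries. Slamf1, which encodes CD150, was between 50.6 and 83.8 CPM in HSC and between 0.916 and 3.40 CPM in MPP3 libraries. Cd48, absent from the surface of most HSCs, was between 6.59 and 20.5 CPM in HSC and between 88.8 and 249.5 CPM in MPP3 libraries. For these 4 genes the ranges of HSC and MPP3 libraries did not overlap. Kit, the stem cell factor receptor used in the gate, was 1196, 1095, 1208 and 1236 CPM in Y-WT HSC and 1377, 1366, 1359 and 1343 CPM in Y-TTPΔARE HSC libraries. It was 1342, 1206, 1289 and 1477 CPM in Y-WT MPP3 and 905, 1098, 1051 and 526 CPM in Y-TTPΔARE MPP3 libraries. Kit was thus higher in every Y-TTPΔARE than in every Y-WT HSC library and lower in every Y-TTPΔARE than in every Y-WT MPP3 library, and library 4 of Y-TTPΔARE MPP3 was the lowest of all. Its interaction value of -0.77 ± 0.23 (SE) did not pass (adjusted p = 0.20, edgeR quasi-likelihood).

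Zfp36, the targeted gene, was higher in the TTPΔARE libraries of both cell types. It measured 74.2, 31.1, 32.7 and 52.9 CPM in Y-WT HSC, 115, 97.0, 88.1 and 97.3 CPM in Y-TTPΔARE HSC, 36.0, 19.7, 27.0 and 29.9 CPM in Y-WT MPP3 and 110.5, 97.3, 76.0 and 115 CPM in Y-TTPΔARE MPP3 libraries. The genotypes did not overlap in either cell type, and the spread was widest among Y-WT HSC libraries, where libraries 1 and 4 were the highest. The fold of the means was 2.08 in HSCs and 3.54 in MPP3 cells (exact permutation test, two-sided, p = 0.0286 in each, the smallest that 4 against 4 libraries allow). In the fit over all genes the log2 difference was 1.06 ± 0.25 (adjusted p = 0.37) in HSCs and 1.82 ± 0.25 (adjusted p = 0.00056, edgeR quasi-likelihood) in MPP3 cells. The interaction value was 0.77 ± 0.34 and did not pass (adjusted p = 0.43, edgeR), and it was 0.32 without Y-WT HSC libraries 1 and 4. Its paralogs Zfp36l1 and Zfp36l2, which bind the same kind of element, had interaction values of 0.24 ± 0.31 and -0.43 ± 0.16 (adjusted p = 0.86 and 0.32, edgeR), and Zfp36l3 was listed at 0 in all libraries but one.

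**Figure D1:**
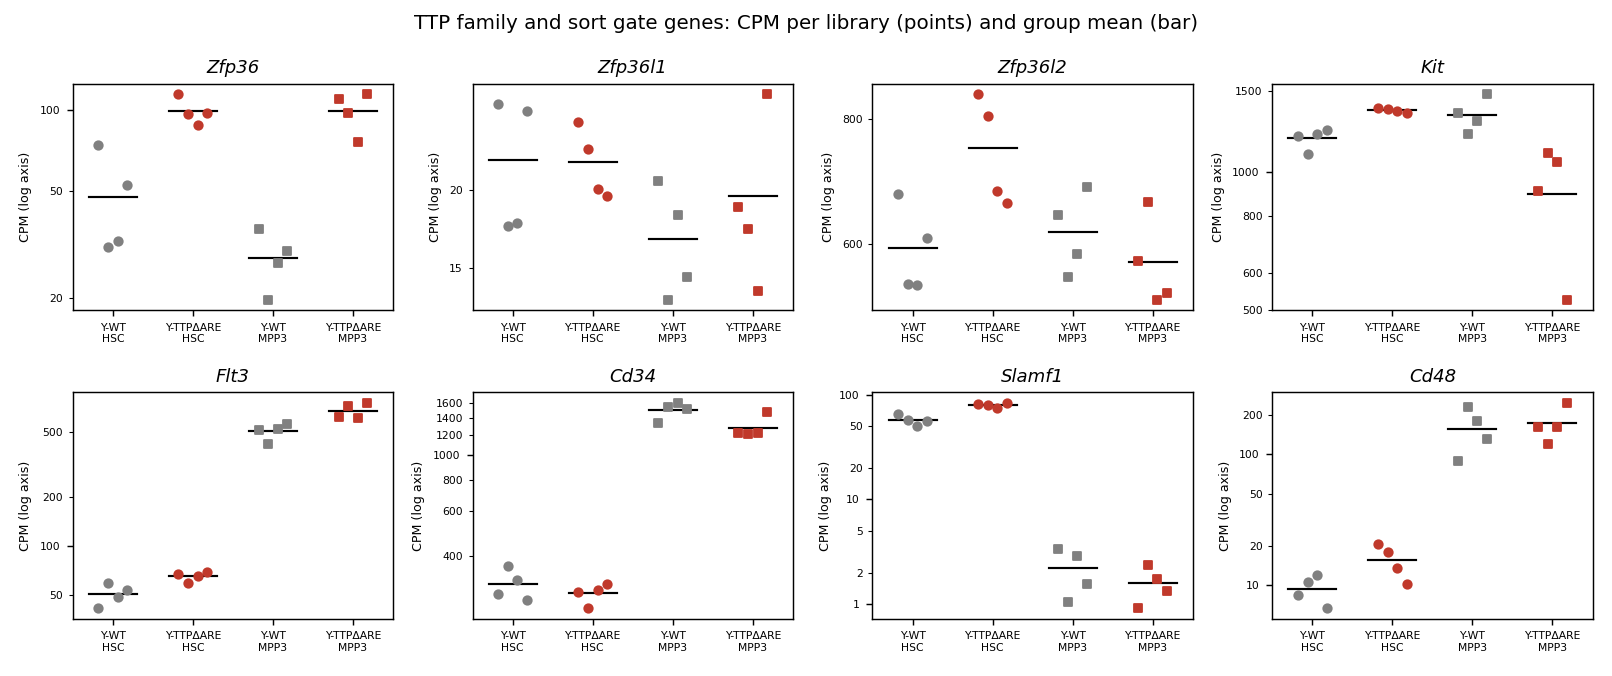
TMM-scaled CPM on a log axis for Zfp36, Zfp36l1, Zfp36l2 and the sort gate genes Kit, Flt3, Cd34, Slamf1 and Cd48, with 1 point per library and a bar at the mean of the 4 libraries of each group. Zfp36 was higher in all Y-TTPΔARE libraries of both cell types, while Flt3, Cd34, Cd48 and Slamf1 separated HSC from MPP3 libraries.

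The interaction calls of the main test were mostly in one direction. Of 26337 genes tested, 113 (0.429%) had an interaction value past an adjusted p of 0.05, a size of 1.2-fold and an average log2 CPM of 1.5 in the edgeR quasi-likelihood test. Of these, 101 (0.383%) were more positive in MPP3 cells and 12 (0.0456%) more negative. Without Y-WT HSC libraries 1 and 4 the counts were 88 and 2, and 73 of the 101 and 1 of the 12 were still called. With the summed receptor reads as covariate the counts were 124 and 10, with 99 of the 101 and 7 of the 12 still called. The balance was the other way at an unadjusted p under 0.05 in the edgeR test. With the same size and level limits, 519 interaction values were then more positive and 1837 more negative. By limma voom 157 were called more positive and 393 more negative. The genotype difference itself passed for 379 genes upwards (1.44%) and 132 downwards (0.501%) in MPP3 cells. In HSCs it passed for 3 genes upwards (0.0114%), Ccl3, Ccr2 and Padi4, and 0 downwards. Of these HSC calls 0 were made without Y-WT HSC libraries 1 and 4. The same held without any 1 HSC library other than Y-WT HSC library 3. At an unadjusted p under 0.05 the HSC counts were 1199 upwards and 161 downwards in the edgeR quasi-likelihood test. With the adjusted p, the upward and downward HSC calls were 20 and 4 by the edgeR likelihood ratio test. They were 37 and 31 by DESeq2 and 1819 and 49 by limma voom. Over the 13467 genes above the level limit the median log2 difference was 0.15 in HSCs and 0.03 in MPP3 cells, and the median interaction value was -0.11.

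The 101 more positive genes had 1 direction in MPP3 cells and no shared direction in HSCs. In MPP3 cells all 101 had a positive log2 difference and 95 were called as higher in Y-TTPΔARE, and in HSCs 51 were above 0, 50 below 0 and 1, Ccr2, was called. Their median log2 difference was 2.72 in MPP3 cells and 0.01 in HSCs. The MPP3 difference was the larger in size for 96 of them and the HSC difference for 5. In HSCs 28 of the 101 had an unadjusted p under 0.05 (edgeR quasi-likelihood), a count that their choice by the same data affects. Every Y-TTPΔARE library was above every Y-WT library for 99 of them in MPP3 cells, against 3.97% of all genes tested, a count that the choice of these genes by the same data makes a description only. In HSCs the genotypes were separated for 9 of them, with no direction fixed, against 4.43% of all genes with every Y-TTPΔARE library above and 1.46% with every one below. In 68 of the 101 genes the mean level in Y-WT MPP3 was below that in Y-WT HSC libraries, with Y-WT HSC libraries 1 and 4 included. The same share over all genes was not computed, so this count is a description. Interaction values ranged from 0.82 to 7.43 without 1 immunoglobulin segment gene. Over all genes above the level limit the correlation of the HSC with the MPP3 difference was 0.24 across genes (n = 13467 genes, which are not independent replicates). Of all genes tested, with no level limit, 47.3% had the same sign in both cell types.

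**Figure D2:**
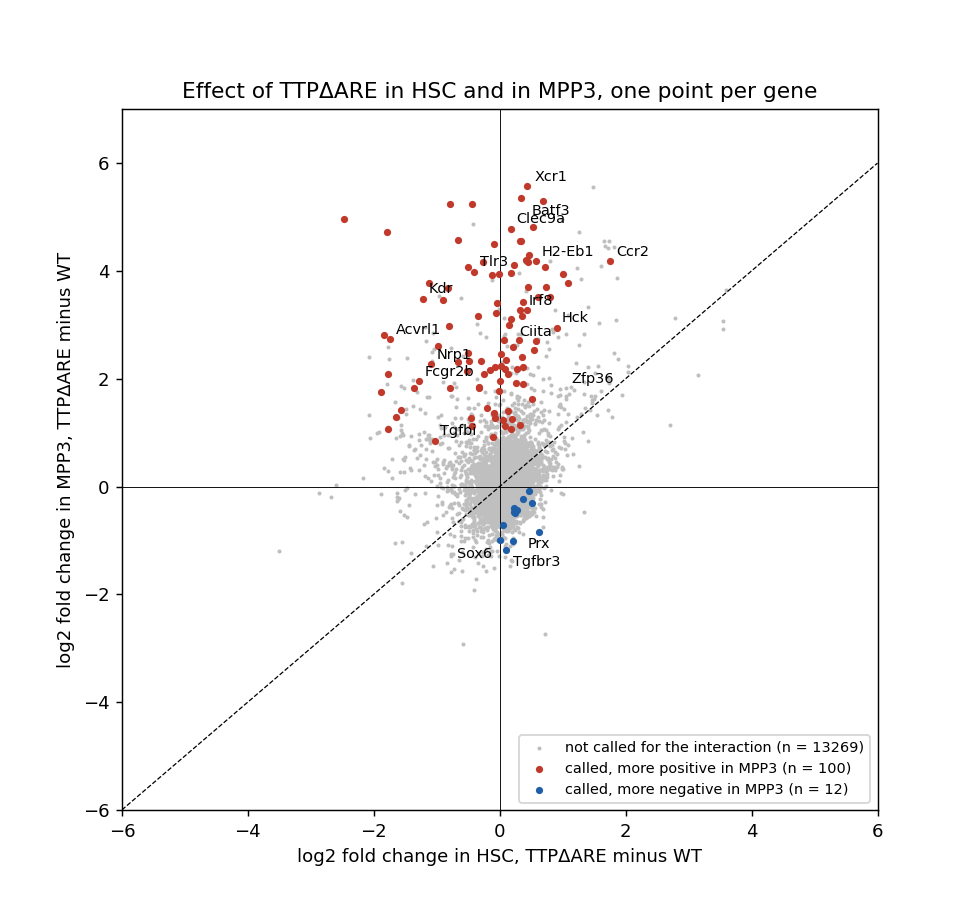
Log2 difference between Y-TTPΔARE and Y-WT in HSCs (horizontal) against that in MPP3 cells (vertical), with 1 point for each gene above the level limit and segment genes left out. The 100 red points (more positive in MPP3) lie above the diagonal with HSC differences on both sides of 0, and the 12 blue points (more negative) lie at HSC differences above 0 and MPP3 differences below 0. Outside the axes lie 2 points.

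MHC class II presentation genes formed the clearest group, with Y-TTPΔARE MPP3 libraries far above the other groups. Of 11 members tested, 7 had a called positive interaction (63.6%, against 0.429% of all genes tested). In Y-TTPΔARE MPP3 cells 10 were higher, against 1.44% of all genes tested, whereas 0 were called in HSCs. The median interaction value was 2.05, against 0.11 for all genes tested. The summed level of the 11 genes was between 1063 and 1326 CPM in Y-WT HSC, between 1239 and 1989 CPM in Y-TTPΔARE HSC, between 919 and 1472 CPM in Y-WT MPP3 and between 6119 and 12034 CPM in Y-TTPΔARE MPP3 libraries. All 7 calls were still made with each of the 16 libraries left out in turn and with Y-WT HSC libraries 1 and 4 left out together. This list and the other gene lists were chosen with earlier results of these data known, so their shares called are a description.

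Ciita, the master transactivator of MHC class II genes (chr16:10480059-10528418, GRCm38, GENCODE M21), had the smallest p of all genes. It measured 13.3, 16.2, 15.4 and 14.8 CPM in Y-WT HSC and 19.8, 16.4, 16.4 and 13.2 CPM in Y-TTPΔARE HSC libraries. It measured 9.28, 8.19, 7.96 and 11.2 CPM in Y-WT MPP3 and 86.4, 55.1, 72.2 and 77.1 CPM in Y-TTPΔARE MPP3 libraries. The HSC genotypes overlapped, and every Y-TTPΔARE MPP3 library lay above all other 12 libraries. The log2 difference was 0.14 ± 0.16 in HSCs and 2.99 ± 0.17 in MPP3 cells, and the interaction value was 2.85 ± 0.22 (adjusted p = 2.1e-05, edgeR quasi-likelihood).

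The classical chains, which form the peptide-binding molecule on the cell surface, were also highest in Y-TTPΔARE MPP3 libraries. H2-Ab1, the beta chain of I-A, measured 187, 202, 138 and 158 CPM in Y-WT HSC, 333, 209, 309 and 195 CPM in Y-TTPΔARE HSC, 175, 177, 166 and 216 CPM in Y-WT MPP3 and 2306, 1437, 1682 and 2945 CPM in Y-TTPΔARE MPP3 libraries. The lowest Y-TTPΔARE MPP3 library was above every other library, and the HSC genotypes overlapped. H2-Ab1 had a log2 difference of 0.61 ± 0.22 in HSCs and 3.51 ± 0.24 in MPP3 cells, with an interaction value of 2.90 ± 0.31 (adjusted p = 0.00027, edgeR). Its partner H2-Aa, the alpha chain, had an interaction value of 3.25 ± 0.36 (adjusted p = 0.00032, edgeR). H2-Eb1, the beta chain of I-E, measured 91.7, 86.4, 49.2 and 71.4 CPM in Y-WT HSC, 144, 96.7, 123 and 81.9 CPM in Y-TTPΔARE HSC, 44.7, 35.5, 32.8 and 54.4 CPM in Y-WT MPP3 and 774, 521, 568 and 1169 CPM in Y-TTPΔARE MPP3 libraries. Its interaction value was 3.60 ± 0.38 (adjusted p = 0.00027, edgeR), and the library highest in H2-Eb1, library 4 of Y-TTPΔARE MPP3, was the one lowest in Kit.

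Genes that load the molecule differed more among themselves. Cd74, the invariant chain that guides class II molecules to the endosome, and H2-DMb1 and H2-DMb2, subunits of the peptide exchange factor, had interaction values of 2.83 ± 0.45, 1.52 ± 0.24 and 2.05 ± 0.28 (adjusted p = 0.0064, 0.0065 and 0.0017, edgeR). H2-DMb1 and H2-DMb2 are close copies whose reads the counting could split, so the division between them is uncertain. H2-DMa, the partner chain of H2-DMb, and H2-Oa and H2-Ob, which form the inhibitor of that exchange factor, had interaction values of 0.51, 0.82 and 0.33 that did not pass (adjusted p = 0.44, 0.25 and 0.76, edgeR), although each was called as higher in Y-TTPΔARE MPP3 cells, by 0.89, 1.15 and 0.72 on the log2 scale. H2-Ob measured between 82.5 and 119 CPM in Y-WT MPP3 and between 10.3 and 21.6 CPM in Y-WT HSC libraries. Ctss, the protease that trims the invariant chain, had an interaction value of 1.06 ± 0.53 (adjusted p = 0.50, edgeR). These loading genes outside the rule for named genes were chosen after their values were seen.

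MHC class II promoters share a set of short boxes, of which the Y box is bound by the factor NF-Y. The letters CTGATTGG were searched on both strands of the windows from 250 bases before to 50 bases after each gene start in RefSeq (GRCm38.p6), which covered 8 of the 11 class II genes. They were found in 3 of those 8 genes (37.5%), in 7 of the 76 more positive genes with a window (9.21%), in 6.59% of the 9891 genes above the level limit with a window and in 4.7% of all 27018 genes with a window. The windows of the class II genes and of Irf8 are printed with the box in capitals, 5′ to 3′ on the gene's strand, to show its neighbourhood in genes described here. A match is a description of letters and not a site of binding.
H2-Aa, chr17:34287856-34287885, minus strand: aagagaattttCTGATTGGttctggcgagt
H2-Eb1, chr17:34305794-34305823, plus strand: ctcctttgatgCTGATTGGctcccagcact
H2-Oa, chr17:34092322-34092351, plus strand: agagaactgctCTGATTGGctgcttaccgc
Irf8, chr8:120736223-120736252, plus strand: ggcaggctgcgCTGATTGGgccgcgccagc

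Some monocyte, macrophage and dendritic markers were also called. Of 17 members tested, 6 had a called positive interaction (Ccr2, Cd68, Xcr1, Batf3, Zbtb46 and Itgax). That is 35.3%, against 0.429% of all genes tested. In Y-TTPΔARE MPP3 cells 10 members were higher, against 1.44% of all genes tested, and the median interaction value was 2.24. The 6 calls were also made without Y-WT HSC libraries 1 and 4. A list of 20 genes of type 1 dendritic cells was drawn up after the values were seen and is therefore no independent evidence. It had 15 called (75%), all more positive, and 17 higher in Y-TTPΔARE MPP3 cells, with a median interaction value of 3.16. Its summed level was between 595 and 868 CPM in Y-WT HSC, between 786 and 891 CPM in Y-TTPΔARE HSC, between 756 and 877 CPM in Y-WT MPP3 and between 2048 and 3892 CPM in Y-TTPΔARE MPP3 libraries. All 15 calls were made without Y-WT HSC libraries 1 and 4, and 9 of the 15 in every fit that left out 1 library. The part of mature cells in the Y-TTPΔARE MPP3 libraries was not tested.

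Surface receptors of type 1 dendritic cells had among the highest values. Clec9a, a receptor for dead cells (chr6:129408862-129424763), measured 4.22, 2.44, 2.38 and 4.87 CPM in Y-WT HSC, 4.59, 4.34, 3.61 and 3.24 CPM in Y-TTPΔARE HSC, 1.55, 0.666, 0.721 and 1.40 CPM in Y-WT MPP3 and 32.1, 18.0, 26.4 and 43.3 CPM in Y-TTPΔARE MPP3 libraries. The HSC genotypes overlapped, and Y-WT MPP3 libraries were below all HSC libraries. The interaction value of Clec9a was 4.60 ± 0.46 (adjusted p = 0.00027, edgeR). Xcr1, the receptor of the chemokine Xcl1 (chr9:123852315-123862029), measured 0.169, 0.586, 0.629 and 0.992 CPM in Y-WT HSC, 0.581, 0.888, 0.567 and 1.18 CPM in Y-TTPΔARE HSC, 1.45, 0.333, 1.003 and 2.77 CPM in Y-WT MPP3 and 74.3, 41.1, 62.0 and 89.0 CPM in Y-TTPΔARE MPP3 libraries. Xcr1 was thus near the lower end of detection in 3 of the 4 groups. For Xcr1 the interaction value was 5.13 ± 0.74 (adjusted p = 0.0030, edgeR).

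The transcription factors of this lineage rose in Y-TTPΔARE MPP3 cells as well. Irf8, required for type 1 dendritic cells and monocytes, measured 19.96, 11.2, 13.2 and 22.4 CPM in Y-WT HSC, 22.8, 22.3, 22.3 and 15.9 CPM in Y-TTPΔARE HSC, 22.5, 23.3, 59.0 and 39.8 CPM in Y-WT MPP3 and 422, 232, 329.8 and 415 CPM in Y-TTPΔARE MPP3 libraries. Its interaction value was 2.96 ± 0.42 (adjusted p = 0.0030, edgeR), the HSC genotypes overlapped and the MPP3 genotypes did not. Batf3, its partner on DNA, was between 0.0555 and 0.724 CPM in Y-WT MPP3 and between 9.07 and 24.5 CPM in Y-TTPΔARE MPP3 libraries. The Batf3 interaction of 5.01 ± 0.94 (adjusted p = 0.024, edgeR) was called in 9 of the 16 fits that left out 1 library. Id2, an inhibitor of E proteins, had an interaction value of 2.94 ± 0.54 (adjusted p = 0.019, edgeR). Its HSC values were higher in Y-TTPΔARE by 1.003 ± 0.38 on the log2 scale, which did not pass (adjusted p = 0.65, edgeR).

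Zbtb46, a factor of conventional dendritic cells that endothelial cells also express, measured 24.1, 9.73, 11.9 and 22.8 CPM in Y-WT HSC, 18.2, 12.9, 12.4 and 10.2 CPM in Y-TTPΔARE HSC, 4.16, 2.33, 2.79 and 3.75 CPM in Y-WT MPP3 and 35.1, 24.2, 33.6 and 23.6 CPM in Y-TTPΔARE MPP3 libraries. In Y-WT HSC it was highest in libraries 1 and 4, which also held the most endothelial marker RNA. For Zbtb46 the interaction value was 3.51 ± 0.41 (adjusted p = 0.00050, edgeR) and was called without those libraries too. Naaa, a lysosomal amidase, and Tlr3, the endosomal receptor of double-stranded RNA, had interaction values of 3.83 ± 0.41 and 4.39 ± 0.47 (adjusted p = 0.00027 for both, edgeR). Naaa was between 8.10 and 17.3 CPM in Y-WT MPP3 and between 147 and 401 CPM in Y-TTPΔARE MPP3 libraries. Tlr3 was between 1.88 and 5.74 CPM in Y-WT MPP3 and between 38.8 and 62.6 CPM in Y-TTPΔARE MPP3 libraries.

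Other dendritic cell types were less represented among the calls. Of 9 tested genes of plasmacytoid dendritic cells, which make type I interferon, 1 was called (Irf7), with a median interaction value of 1.196. That is 11.1%, against 0.429% of all genes tested. Of 9 genes of type 2 conventional dendritic cells 0 were called, with a median of 0.37. At an unadjusted p under 0.05, 2 of the 9 type 2 genes were more positive, and the likelihood ratio test, DESeq2 and voom each called 1. Both lists were drawn up after the values were seen, and the lists were not tested against each other. Cd209a, a lectin of type 2 and monocyte-derived dendritic cells, rose in Y-TTPΔARE MPP3 cells by 4.96 ± 0.73 on the log2 scale, with an interaction value of 3.97 ± 0.97 that did not pass (adjusted p = 0.097, edgeR).

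**Figure D3:**
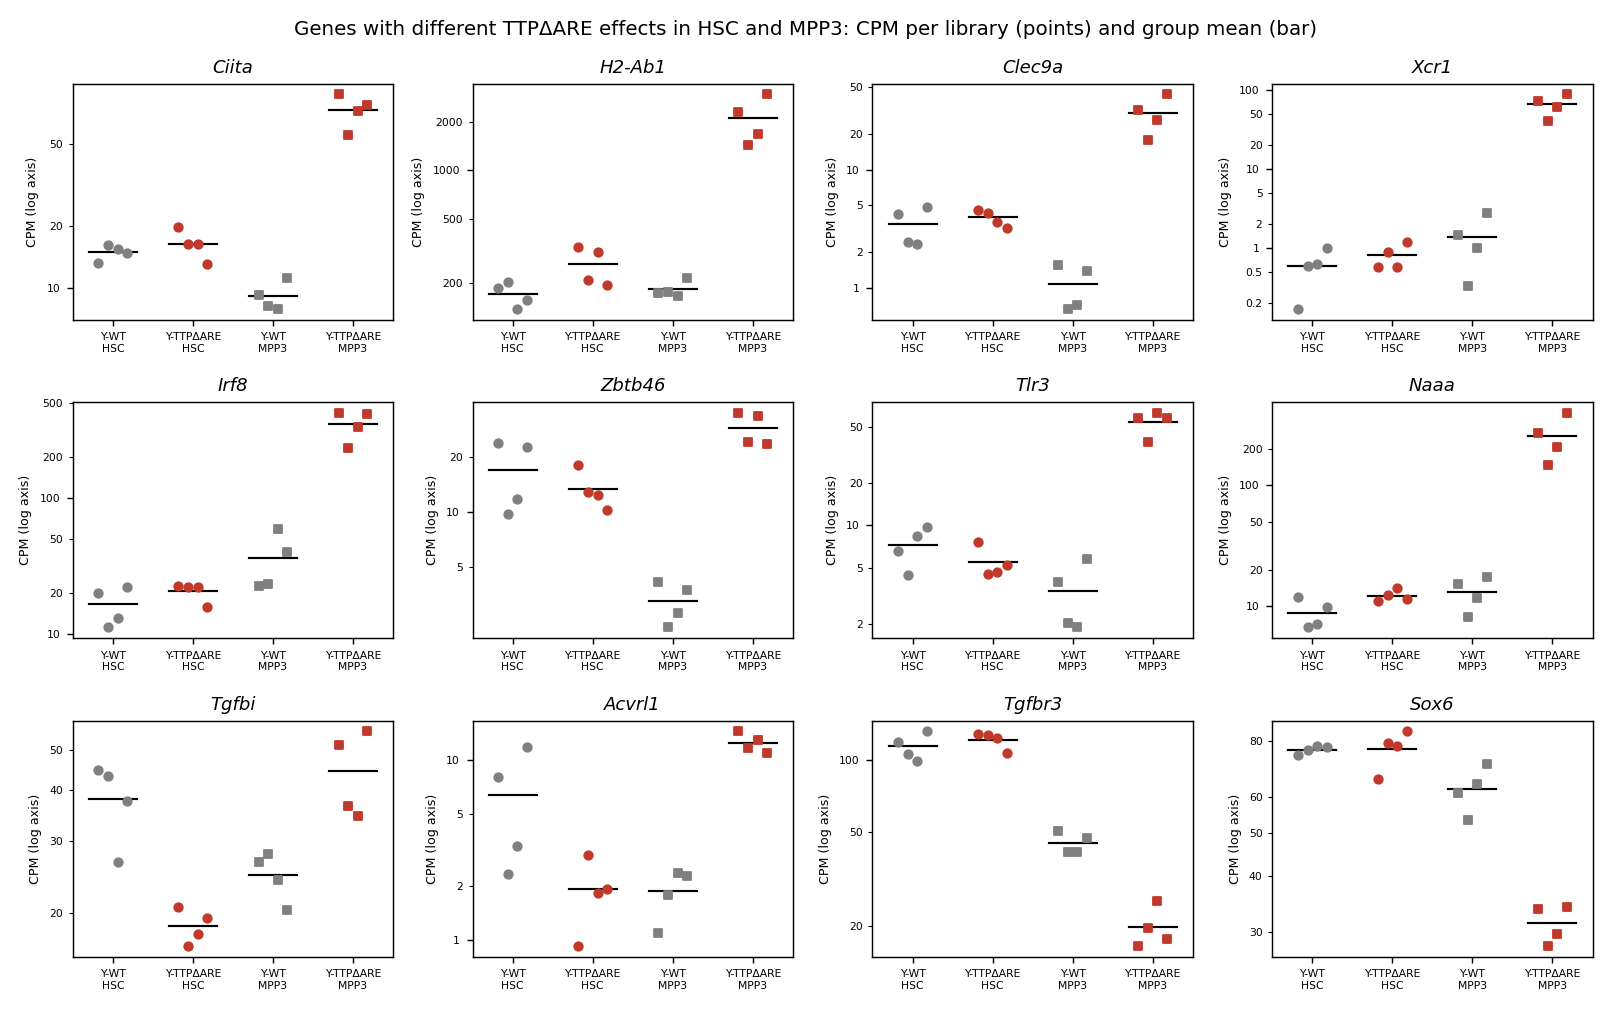
TMM-scaled CPM on a log axis for Ciita, H2-Ab1, Clec9a, Xcr1, Irf8, Zbtb46, Tlr3, Naaa, Tgfbi, Acvrl1, Tgfbr3 and Sox6, with 1 point per library and a bar at the mean of each group of 4. In the first 8 genes the Y-TTPΔARE MPP3 libraries stand above the Y-WT MPP3 libraries, Tgfbi and Acvrl1 are also lower in Y-TTPΔARE than in Y-WT HSC means, and Tgfbr3 and Sox6 are lowest in Y-TTPΔARE MPP3.

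Ccr2, the receptor that draws monocytes out of the marrow, was the gene called both in HSCs and for the interaction. It measured 4.16, 2.47, 4.19 and 3.501 CPM in Y-WT HSC and 18.0, 11.9, 9.32 and 9.21 CPM in Y-TTPΔARE HSC libraries. It measured 7.33, 6.60, 12.7 and 9.52 CPM in Y-WT MPP3 and 182, 120.0, 163 and 189.6 CPM in Y-TTPΔARE MPP3 libraries. The genotypes did not overlap in either cell type. The log2 difference was 1.76 ± 0.26 in HSCs (adjusted p = 0.033) and 4.18 ± 0.28 in MPP3 cells (adjusted p = 7.6e-07), and the interaction value was 2.42 ± 0.35 (adjusted p = 0.0031, edgeR). Ccl3, a chemokine whose mRNA holds AU-rich elements, was also called in both cell types, by 1.79 ± 0.24 in HSCs and 1.29 ± 0.23 in MPP3 cells on the log2 scale, and its interaction value was -0.50 ± 0.33 (adjusted p = 0.68, edgeR). The HSC calls of Ccr2 and Ccl3 were lost when any 1 HSC library other than Y-WT HSC library 3 was left out.

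Single members of the interferon, immediate early and granulocyte-monocyte lists were called. Of 30 interferon response genes 2 were called, Irf7 and Mx1 (6.67%, against 0.429% of all genes tested). The list median was 0.11, against 0.11 for all genes tested and -0.11 for genes above the level limit. Irf7, which amplifies type I interferon, was between 38.9 and 47.0 CPM in Y-WT MPP3 and between 71.9 and 118 CPM in Y-TTPΔARE MPP3 libraries, with an interaction value of 1.04 ± 0.19 (adjusted p = 0.022, edgeR). Mx1, an antiviral GTPase, had an interaction value of 1.94 ± 0.39 (adjusted p = 0.033, edgeR). Both were called without Y-WT HSC libraries 1 and 4 (adjusted p = 0.049 and 0.042, edgeR). Neither of the 2 was called in every fit that left out 1 library (14 and 8 of 16). Klf2, a zinc-finger factor of quiescence and migration and 1 of 21 immediate early genes tested, was between 0.793 and 1.13 CPM in Y-WT MPP3 and between 12.1 and 20.1 CPM in Y-TTPΔARE MPP3 libraries. The interaction value of Klf2 was 3.77 ± 0.44 (adjusted p = 0.00050, edgeR).

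The granulocyte-monocyte programme had 2 calls among 20 genes, Irf8 and Igsf6 (10%, against 0.429% of all genes tested). In Y-TTPΔARE MPP3 cells 9 members were higher, against 1.44% of all genes tested. The median interaction value was 1.04, and both calls were made without Y-WT HSC libraries 1 and 4. Igsf6, an immunoglobulin superfamily receptor of myeloid cells, had an interaction value of 2.29 ± 0.39 (adjusted p = 0.012, edgeR). Slamf8, a receptor of activated myeloid cells, and Slc46a3, a lysosomal transporter, were among the 10 smallest p, with interaction values of 3.71 ± 0.41 and 2.31 ± 0.25 (adjusted p = 0.00032 and 0.00027, edgeR). Slamf8 was between 1.11 and 3.44 CPM in Y-WT MPP3 and between 35.5 and 54.4 CPM in Y-TTPΔARE MPP3 libraries, and between 6.34 and 17.0 CPM across HSC libraries. Cxcl9, an interferon-induced chemokine chosen after its values were seen, had an interaction value of 4.30 ± 0.52 (adjusted p = 0.00063, edgeR).

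The TGF-beta pathway was the list with calls in both directions. Of 23 members tested, Acvrl1, Tgfbi and Id2 were more positive and Tgfbr3 was more negative in MPP3 cells, and the list median was -0.11. These were 17.4% of the members, against 0.429% of all genes tested. All 4 calls were also made without Y-WT HSC libraries 1 and 4. Tgfbi, a secreted matrix protein induced by TGF-beta, measured 44.7, 43.3, 26.6 and 37.5 CPM in Y-WT HSC, 20.7, 16.6, 17.8 and 19.4 CPM in Y-TTPΔARE HSC, 26.6, 27.9, 24.1 and 20.3 CPM in Y-WT MPP3 and 51.5, 36.5, 34.5 and 55.5 CPM in Y-TTPΔARE MPP3 libraries. The genotypes were separated in both cell types, with Y-TTPΔARE below Y-WT in HSCs and above it in MPP3 cells. The log2 difference was -1.03 ± 0.18 in HSCs (adjusted p = 0.10) and 0.85 ± 0.18 in MPP3 cells (adjusted p = 0.019), and the interaction value was 1.88 ± 0.26 (adjusted p = 0.0020, edgeR). It was 1.88 (adjusted p = 0.0047, edgeR) without Y-WT HSC libraries 1 and 4.

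Acvrl1, a type I receptor of BMP9 in endothelial cells (chr15:101128522-101145336), measured 8.04, 2.34, 3.36 and 11.8 CPM in Y-WT HSC, 0.930, 2.98, 1.82 and 1.93 CPM in Y-TTPΔARE HSC, 1.09, 1.78, 2.35 and 2.28 CPM in Y-WT MPP3 and 14.4, 11.6, 12.9 and 11.0 CPM in Y-TTPΔARE MPP3 libraries. The highest Y-WT HSC libraries were again 1 and 4. Its interaction value was 4.47 ± 0.63 (adjusted p = 0.0025, edgeR) with all libraries and 3.46 (adjusted p = 0.0069, edgeR) without those 2. The HSC difference changed from -1.74 to -0.78 on the log2 scale between these fits, and the MPP3 difference was 2.73 ± 0.45 (adjusted p = 0.0027, edgeR).

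Acvrl1 and Tgfbi belonged to 16 of the 101 more positive genes whose HSC difference was below -1 on the log2 scale. For most of the 16, Tgfbi not among them, that difference was smaller in size without Y-WT HSC libraries 1 and 4. Their choice by the same data affects this shift. Without those libraries 9 of the 16 and 64 of the other 85 were still called. Without library 4 alone 10 and 50 were called, without library 1 alone 16 and 83, and in all fits that left out 1 library 9 and 45. A link of the 16 with the endothelial markers was not tested. Kdr, the VEGF receptor and the called member of the endothelial list, measured 101, 34.3, 31.8 and 128 CPM in Y-WT HSC, 28.4, 32.7, 37.7 and 29.0 CPM in Y-TTPΔARE HSC, 0.793, 0, 0.564 and 0.155 CPM in Y-WT MPP3 and 5.31, 3.03, 6.86 and 1.11 CPM in Y-TTPΔARE MPP3 libraries. For Kdr the interaction value was 4.69 ± 0.93 (adjusted p = 0.033) with all libraries and 3.73 (adjusted p = 0.17, edgeR) without those 2. Nrp1, a coreceptor of VEGF and semaphorins and the called member of the adhesion and migration list, had 3.36 ± 0.54 (adjusted p = 0.0073) with all libraries and 2.70 (adjusted p = 0.032, edgeR) without them. Fcgr2b, the inhibitory Fc receptor, which was chosen after its values were seen and which sinusoidal endothelium also expresses, measured 58.6, 19.8, 23.9 and 63.0 CPM in Y-WT HSC and 65.9, 56.3, 69.1 and 92.2 CPM in Y-TTPΔARE MPP3 libraries, against 13.5 to 19.7 CPM in Y-TTPΔARE HSC and 15.3 to 25.5 CPM in Y-WT MPP3 libraries. Its value was 3.22 ± 0.45 (adjusted p = 0.0024) with all libraries and 2.44 (adjusted p = 0.00073, edgeR) without those 2.

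Lrg1, a secreted glycoprotein of vessels and neutrophils and the highest interaction value outside the segment genes, shows the limit of the contrast. It measured 136, 34.3, 27.9 and 141 CPM in Y-WT HSC and between 11.1 and 18.5 CPM in Y-TTPΔARE HSC libraries. In MPP3 cells it was between 0 and 0.0661 CPM in Y-WT and between 0.183 and 2.20 CPM in Y-TTPΔARE libraries, so its fitted value depends on a handful of reads and on the prior count. It was also chosen after its values were seen.

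The 12 more negative genes were fewer and smaller in size. All 12 had a positive difference in HSCs and a negative one in MPP3 cells, with medians of 0.24 and -0.48 on the log2 scale. In MPP3 cells 8 were called as lower in Y-TTPΔARE and in HSCs 0 were called. The MPP3 genotypes were separated for 10 of the 12, against 3.36% of all genes tested with every Y-TTPΔARE MPP3 library below, which their choice by the same data makes a description. Interaction values ranged from -1.47 to -0.55, against a median of -0.11 over genes above the level limit. Between 2 and 4 negative calls were made with RLE, upper quartile or library-total scaling, with segment genes left out or with TMM factors from genes above the level limit alone, under which that median was between -0.05 and 0.02. Without Y-WT HSC libraries 1 and 4, 1 of the 12 was still called.

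Tgfbr3, also called betaglycan, a coreceptor that binds TGF-beta2 and inhibin (chr5:107106570-107289629), was the gene of the 12 called in every fit that left out 1 library. It measured 119, 107, 99.7 and 133 CPM in Y-WT HSC, 129, 127, 125 and 108 CPM in Y-TTPΔARE HSC, 50.2, 41.2, 41.0 and 47.0 CPM in Y-WT MPP3 and 16.5, 19.7, 25.5 and 17.6 CPM in Y-TTPΔARE MPP3 libraries. The HSC genotypes overlapped, and all Y-TTPΔARE MPP3 libraries were below all Y-WT MPP3 libraries. Its log2 difference was 0.10 ± 0.13 in HSCs and -1.17 ± 0.14 in MPP3 cells, and the interaction value was -1.27 ± 0.19 (adjusted p = 0.0037, edgeR). Sox6, a factor of erythroid and megakaryocyte maturation, measured 74.5, 76.5, 78.2 and 77.8 CPM in Y-WT HSC, 65.9, 79.6, 78.2 and 84.3 CPM in Y-TTPΔARE HSC, 61.5, 53.3, 64.3 and 71.1 CPM in Y-WT MPP3 and 33.8, 28.0, 29.8 and 34.2 CPM in Y-TTPΔARE MPP3 libraries. Sox6 was level across HSC libraries and lower in every Y-TTPΔARE MPP3 library. The interaction value of Sox6 was -0.997 ± 0.15 (adjusted p = 0.0038, edgeR), called in 14 of those 16 fits.

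The other negative genes named here were called in few of those fits. Prx, periaxin, had an interaction value of -1.23 ± 0.22 (adjusted p = 0.015, edgeR) and was called in 6 of 16. Smo, the Hedgehog signal transducer, Dach1, a transcriptional cofactor, Nedd1, a centrosome protein, and BC034090 had values of -0.63, -0.74, -0.69 and -1.47 and were called in 1 or 2 of 16. Kcnab2, a potassium channel subunit, and Heg1, a transmembrane mucin-like receptor, had values of -0.55 and -0.61 and were called in 0 of 16 such fits. In Kcnab2 the larger part lay in HSCs, with 49.2, 52.3, 50.4 and 52.1 CPM in Y-WT and 71.0, 69.4, 74.4 and 68.2 CPM in Y-TTPΔARE libraries. Its MPP3 difference was -0.08 ± 0.08 on the log2 scale.

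Stem cell and proliferation lists held no called interaction, and their medians were below those of all genes tested (0.11) and of genes above the level limit (-0.11). All tested members of both lists were above the level limit. Of the 13467 genes above it, 1837 were more negative at an unadjusted p under 0.05 with the size limit (edgeR quasi-likelihood). The HSC identity list had 0 calls among 20 genes with a median of -0.35, and 7 members were more negative at an unadjusted p under 0.05. The edgeR likelihood ratio test and DESeq2 each called 2 of them and voom called 4. Over all genes tested these made 27, 69 and 393 more negative calls. In MPP3 cells 2 of the 20 members were called as lower in Y-TTPΔARE, against 0.501% of all genes tested. They were Tek, the angiopoietin receptor, by 1.22 ± 0.19 on the log2 scale, and Fgd5, an HSC marker, by 0.77 ± 0.19. Their interaction values were -1.07 ± 0.26 and -1.06 ± 0.27 (adjusted p = 0.098 and 0.11, edgeR). Of 26 S phase and mitosis genes 0 were called, also by the likelihood ratio test, DESeq2 and voom, 0 had an interaction value above 0, and 9 had an unadjusted p under 0.05, with a median of -0.42.

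Lists of the decay pathway itself had no call. The 33 tested transcripts reported as TTP targets had a median interaction value of 0.05, with 2 more positive and 1 more negative at an unadjusted p under 0.05, and the 20 ARE-binding proteins and CCR4-NOT subunits had a median of -0.20, with 1 and 3. The likelihood ratio test and DESeq2 made 0 calls in either list, and voom made 0 in the first and 1 in the second. The TNF and NF-kB response list (0 of 22, median 0.09) and the cytokine receptor and SOCS list (0 of 26, median 0.03) had no call either, with 3 and 6 members at an unadjusted p under 0.05. The likelihood ratio test and DESeq2 each called 1 member in both of these lists, and voom called 1 and 2.

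Genes named by the study were tested alike. Tnf, a TTP target, measured 1.41, 0.358, 0.489 and 1.40 CPM in Y-WT HSC, 1.31, 0.951, 1.61 and 0.934 CPM in Y-TTPΔARE HSC, 2.38, 0.888, 1.57 and 2.41 CPM in Y-WT MPP3 and 4.00, 2.97, 2.93 and 5.10 CPM in Y-TTPΔARE MPP3 libraries. The MPP3 genotypes did not overlap and the HSC genotypes did, yet its interaction value of 0.66 ± 0.65 did not pass (adjusted p = 0.82, edgeR) and was -0.32 without Y-WT HSC libraries 1 and 4. Il1r1, the interleukin-1 receptor, fell in Y-TTPΔARE MPP3 cells by 1.01 ± 0.17 on the log2 scale (adjusted p = 0.0029, edgeR). It measured 62.0, 101, 85.7 and 82.6 CPM in Y-WT MPP3 and 41.5, 41.5, 46.2 and 35.7 CPM in Y-TTPΔARE MPP3 libraries. In HSCs the difference was -0.57 ± 0.17 (adjusted p = 0.49), and the interaction value was -0.44 ± 0.24 (adjusted p = 0.56, edgeR). Tgfb1, Socs3 and Ncam1 had interaction values of -0.13, -0.12 and 0.68 (adjusted p = 0.84, 0.95 and 0.79, edgeR).

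Marker lists of other mature cells had no call in the main test, though some medians were far from 0. Neutrophil granule markers (0 of 12, median 2.65), mast, basophil and eosinophil markers (0 of 12, median 2.16) and B-cell markers (0 of 15, median 1.12) were above the median of all genes, with 2, 3 and 2 members at an unadjusted p under 0.05 and 0, 1 and 0 calls by voom. The summed level of the mast, basophil and eosinophil markers was between 56.7 and 128 CPM in Y-WT MPP3 and between 167 and 504 CPM in Y-TTPΔARE MPP3 libraries, against 15.9 to 68.4 CPM across HSC libraries. That of the T and NK cell markers was between 84.5 and 106 CPM in Y-WT MPP3, between 128 and 179 CPM in Y-TTPΔARE MPP3, between 90.7 and 153 CPM in Y-WT HSC and between 152 and 314 CPM in Y-TTPΔARE HSC libraries. Both sums were separated by genotype in MPP3 cells, as were those of the class II and type 1 dendritic cell genes, and the part of such cells in those results was not tested. The separation was not particular to these lists. Sums of the monocyte, macrophage and dendritic, TGF-beta, interferon and reported TTP target lists were also above every Y-WT MPP3 library in every Y-TTPΔARE MPP3 library. Those of the sort gate, ARE-binding and endothelial lists were below. The neutrophil median was 0.62 without Y-WT HSC library 4 and 4.50 without Y-WT MPP3 library 2. Plasma cell (0 of 12, median 0.06), T and NK cell (0 of 17, 0.16), erythroid (0 of 15, -0.23), lymphoid priming (0 of 15, 0.06), quiescence (0 of 17, -0.07) and glycolysis (0 of 20, -0.02) lists were closer to it, where DESeq2 called 1 T and NK cell gene and voom 1 lymphoid priming and 2 glycolysis genes. Among 27 adhesion, migration and platelet genes 1 was called (3.7%, against 0.429% of all genes tested), with a median of -0.14. There voom called 1 more positive and 4 more negative.

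**Figure D4:**
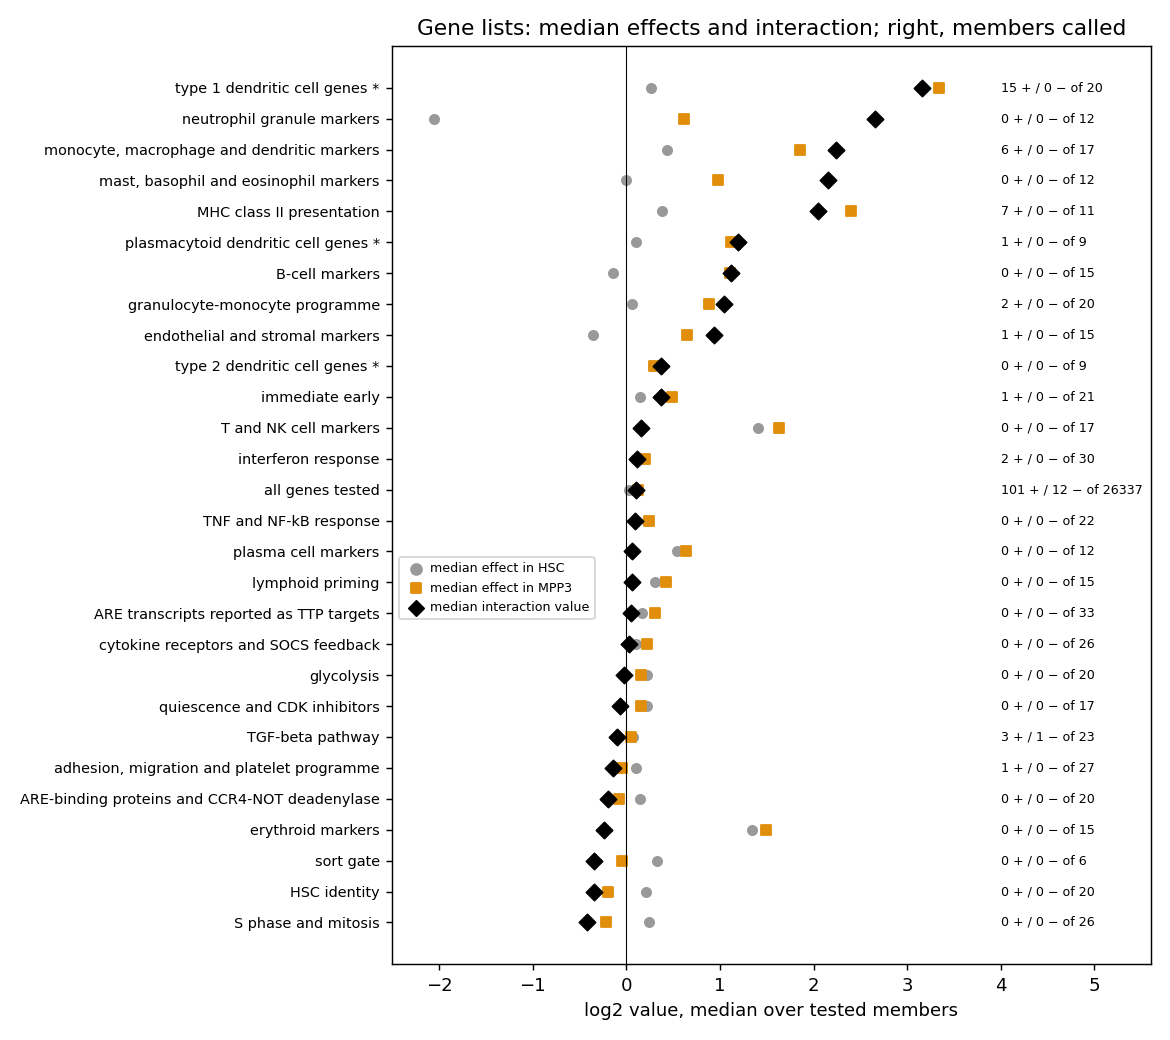
Median log2 difference in HSCs (grey circles), in MPP3 cells (orange squares) and median interaction value (black diamonds) for each gene list, with the members called more positive (+) and more negative (−) of those tested at the right. Lists marked with an asterisk were chosen after the values were seen, and the others with earlier results of these data known. MHC class II genes (7 of 11) and type 1 dendritic cell genes (15 of 20) have the largest shares called.

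The 3′ UTRs of the called genes were read for AU-rich letters, as a description. The pentamer ATTTA was present in 62.9% of the 97 more positive genes with an annotated 3′ UTR, in 91.7% of the 12 more negative genes and in 70.5% of the 11614 genes above the level limit. The nonamer TTATTTATT, the full site that TTP prefers, was present in 7.22%, 8.33% and 8.12% of these. Median 3′ UTR lengths were 867, 2511 and 1193.5 bases, in the order of the shares of ATTTA. Genes higher in Y-TTPΔARE MPP3 cells held ATTTA in 61.2% and the nonamer in 5.87% of 358, and genes lower in them held ATTTA in 83.2% and the nonamer in 9.60% of 125.

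The positive calls varied less with the processing than the negative ones. All 113 genes had the sign of the main fit under every setting run. Leaving out 1 library at a time gave between 61 positive calls, without Y-WT HSC library 4, and 122, without Y-WT HSC library 1, and 54 of the 101 were called in all 16 such fits. Without Y-TTPΔARE MPP3 library 4, which was highest in H2-Eb1 and lowest in Kit, 78 positive and 7 negative calls were made.

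**Figure D5:**
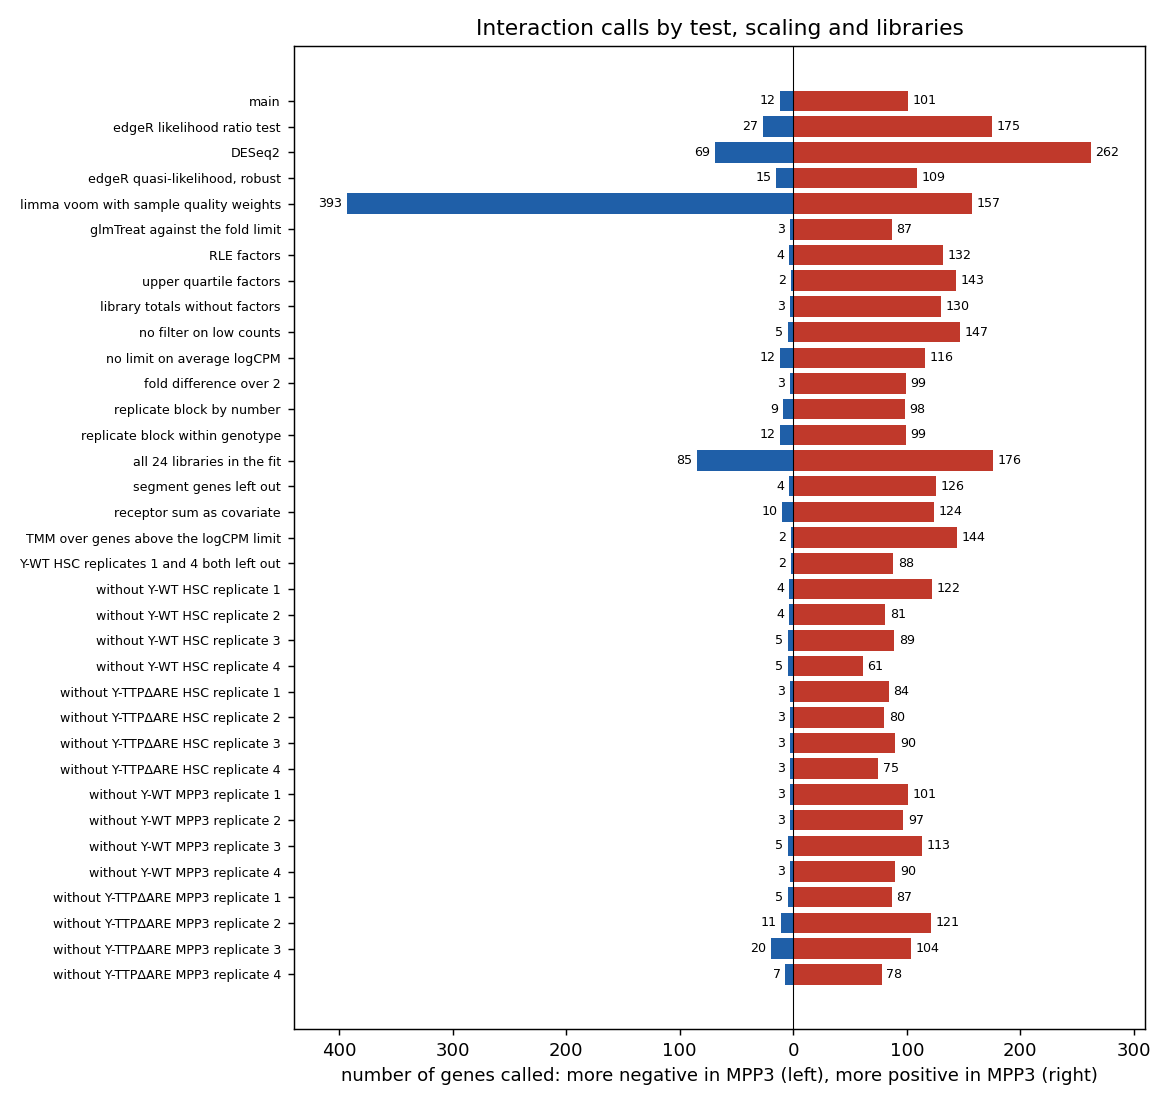
Numbers of genes called more positive and more negative in MPP3 cells under each test, scaling, filter and sample setting, including each library left out in turn. The positive counts lie between 61 and 262, and the negative counts between 2 and 393, with voom giving the 393.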

How the data were processed

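The authors deposited 1 table of raw read counts per gene for each library. Per the labels and the study's methods, reads were trimmed with Trim Galore! and Cutadapt, aligned with STAR to mm10 and counted with featureCounts over GENCODE genes, and the strand and multi-mapping settings were not given in the sources used here. The labels and the methods name different library kits.

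The counts of 16 young libraries, 4 per group, were fitted with the edgeR (4.0.16, R 4.3.3) quasi-likelihood test with 1 coefficient per group. filterByExpr (count minimum 10, total minimum 15) chose the genes, and TMM scaled the libraries. Calls required an adjusted p (Benjamini-Hochberg, over every gene tested) below 0.05, a difference over 1.2-fold and an average log2 CPM over 1.5. The script was tested on simulated data. Alternatives were the edgeR likelihood ratio test and glmTreat, DESeq2 (1.42.0), limma voom (3.58.1), other scalings and filters, each library left out, a replicate block and all 24 libraries. The TMM factors over genes above the level limit and the fit without Y-WT HSC libraries 1 and 4 were chosen after seeing the data.

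The comparison, gene lists and rules were chosen with earlier results of these data known. Named genes were the Zfp36 family, the 10 smallest p in each direction among genes over the level limit (without segment, receptor and predicted genes), 6 genes the study names, the sort gate genes and up to 3 called members per list, of which 2 are not reported here. No 2 libraries of a group agreed within sampling noise. The middle-aged libraries entered the 24-library fit and 1 set of sums. Sequences are from GRCm38, GENCODE M21 and RefSeq.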

Additional observations from a re-analysis of the deposited data

Results flagged for a closer look

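Under the same contrast the TTPΔARE difference of 30 of the 45 named genes differed between HSCs and MPP3 cells, as tested by the interaction value of the edgeR fit. Most of these genes were named for a small interaction p or as called members of a list, so this share is largely set by how they were chosen. More positive in MPP3 cells were the MHC class II genes Ciita (2.85), H2-Eb1 (3.60), H2-Ab1 (2.90) and H2-Aa (3.25). So were the dendritic and myeloid genes Clec9a (4.60), Xcr1 (5.13), Irf8 (2.96), Zbtb46 (3.51), Naaa (3.83), Tlr3 (4.39), Slamf8 (3.71), Igsf6 (2.29), Ccr2 (2.42) and Slc46a3 (2.31). The others were Klf2 (3.77), Irf7 (1.04), Mx1 (1.94), Tgfbi (1.88), Acvrl1 (4.47), Nrp1 (3.36) and Kdr (4.69). More negative were Tgfbr3 (-1.27), Sox6 (-0.997), Prx (-1.23), Kcnab2 (-0.55), Smo (-0.63), BC034090 (-1.47), Nedd1 (-0.69), Heg1 (-0.61) and Dach1 (-0.74).

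In 6 of 180 groups of 4 libraries looked at, 1 library lay far from the others of its group by Dixon's criterion, which chance alone reaches in about 1 of 20 groups. In Y-TTPΔARE MPP3 these were library 4 for Slc46a3 (57.8 CPM) and Cd34 (1475 CPM) and library 3 for Zfp36l3 (0.0673 CPM, the others at 0). In Y-WT MPP3 it was library 1 for Klf2 (0.793 CPM), and in Y-TTPΔARE HSC library 1 for Heg1 (172 CPM) and library 4 for Irf8 (15.9 CPM).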

How the results depend on the processing

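More positive interaction calls numbered 175 by the edgeR likelihood ratio test, 262 by DESeq2, 157 by voom and 176 with 24 libraries in the fit, and in every other setting stayed within 1.5 times 101 except among fits without 1 library (61 to 122). More negative calls numbered 27, 69, 393 and 85 in those 4 settings, 3 with glmTreat, a 2-fold limit or library totals, 4 with RLE or without segment genes, 5 without the count filter, and 2 with upper quartile factors, TMM over genes above the level limit or without Y-WT HSC libraries 1 and 4 (3 to 20 without 1 library, 20 without Y-TTPΔARE MPP3 library 3). In HSCs higher and lower calls numbered 20 and 4 by the likelihood ratio test, 37 and 31 by DESeq2, 1819 and 49 by voom, 15 and 3 with 24 libraries, 5 and 2 without segment genes and 1 and 1 with RLE. Higher HSC calls were 7 in the robust fit, 5 with the receptor sum as covariate and 0 with glmTreat, TMM over genes above the level limit or without Y-WT HSC libraries 1 and 4. Lower HSC calls were 1 with that TMM or upper quartile factors and 2 with library totals or no filter (0 to 4 higher and 0 to 2 lower without 1 library). In MPP3 cells DESeq2 gave 743 and 692 and 24 libraries 664 and 580, and lower calls were 213 by voom, 27 with glmTreat, 225 with RLE, 23 with a 2-fold limit and 215 without segment genes (246 to 497 higher, 63 to 264 lower without 1 library, the extremes without Y-TTPΔARE MPP3 libraries 1, 3 and 4). The cause of these shifts was not tested. Same-numbered libraries correlated between cell types within a genotype (Y-TTPΔARE r from 0.15 to 0.26 in 4 of 4, each best with its own number, and Y-WT r from 0.03 to 0.15, above 0.1 in 3 of 4) but, over all group pairs, above 0.1 in 9 of 24 (r from -0.29). With 1 Y-WT pair under 0.1 and no label giving a shared animal, this is a hint of pairing within genotype and not the design. With the replicate block by number the calls were 98 and 9, of which 87 and 5 were among the main calls, with 5 higher HSC calls, and with the replicate block within genotype 99 and 12, sharing 79 and 3. The Zfp36 interaction was between 0.32 and 0.94 in all settings (0.71 and 0.69 with the blocks) and was never called. Values near 0 turned sign for the Tgfb1 interaction value (0.0146 with upper quartile factors and 0.0169 with TMM over genes above the level limit), the Socs3 interaction value (0.46 by voom, 0.0528 and 0.0615 in those scalings, 0.0366 with library totals, 0.0293 with the receptor covariate, 0.11 without Y-WT HSC libraries 1 and 4, -0.23 to 0.41 without 1 library), the Cd34 interaction value (0.0449 and 0.0451 in those scalings, 0.17 without libraries 1 and 4, -0.20 to 0.0552), the Tnf interaction value (-0.32 without libraries 1 and 4) and the Flt3 interaction value (-0.0285 to 0.25 without 1 library). Few counts limit precision for Batf3 in both Y-WT groups and for Lrg1 in Y-WT MPP3.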

Other observations

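In HSCs of middle-aged mice, which entered no comparison here, the summed level of the 11 MHC class II genes was between 1079 and 1576 CPM in 5 M-WT libraries and between 1286 and 1938 CPM in 3 M-TTPΔARE libraries. The summed level of the 20 type 1 dendritic cell genes was between 759 and 828 CPM in M-WT and between 859 and 940 CPM in M-TTPΔARE libraries. These sums were scaled separately from the young libraries, and no test was run on them.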
